A study of Mus musculus with 2 samples.

Results

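Olfactory receptor genes (Olfr) and vomeronasal receptor genes (Vmn1r and Vmn2r) encode chemosensory receptors of the nose and were examined here for Msl1 and Nsl1 binding in mouse embryonic stem cells (mESCs). The members were all protein-coding genes on the autosomes of the mm9 annotation with a symbol that begins with Olfr, Vmn1r or Vmn2r, each with its most upstream transcription start site (TSS). They numbered 1433 of 21418 autosomal protein-coding genes, with 1106 Olfr, 203 Vmn1r and 124 Vmn2r genes. Reads were counted within 500 bases and within 2 kb of each TSS in both ChIP-seq libraries. The Msl1 and the Nsl1 library came from chromatin of wild type mESCs labelled E14, of passage P26 and the genetic background 129P2/OlaHsd, with no further treatment. Each antibody was represented by 1 library, so the intervals below cover counting error only and no p-value is given. The Msl1 library held 19483142 distinct nuclear reads of 50 bases and the Nsl1 library 24883001 of 36 bases, and the kits used for library preparation differed, so antibody, read length and kit cannot be told apart. The Input to which the study normalized its densities was not used here, and gene expression was not measured in these files.

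Each olfactory sensory neuron uses one Olfr allele out of the whole repertoire, and the others are held silent in compact chromatin. Odorant receptors signal through the G protein subunit Golf, adenylyl cyclase and a cyclic nucleotide-gated channel. Vmn1r and Vmn2r receptors work in the vomeronasal organ through Gi2 or Go and the channel Trpc2, and Vmn2r receptors carry a long extracellular domain that is encoded on exons of its own. Outside the nose most receptor genes are silent, and their DNA is AT-rich, lies in large clusters of tandem copies and is replicated late in most cells. Msl1 and Nsl1 are subunits of 2 complexes that share the histone acetyltransferase Mof, MSL and NSL, whose binding has been described mainly at active genes.

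The annotated starts of receptor genes differ from those of other genes. In 871 of the 1433 receptor genes (60.8%) the annotated TSS was the first coding base, against 8.52% of other protein-coding genes, since for most receptors no leader exon is annotated in this release. Of these 871 starts, 845 began with ATG. The 500 bases on either side of the receptor TSSs had a median GC content of 38.4% and a median ratio of observed to expected CpG of 0.127, against 55.8% and 0.598 at other genes. That ratio exceeded 0.6, a common threshold for CpG islands, at 2 receptor TSSs and at 49.8% of the others. Within the 250 bases before the TSS, 43.1% of receptor genes had no CG dinucleotide at all and the median was 1, whereas other genes had a median of 10. To show this difference, the 200 bases before the TSS are given for the receptor gene with the most Msl1 reads (Olfr222), for those with the highest Nsl1 and Msl1 reads relative to their surroundings (Olfr658 and Vmn1r171) and for Lbr, which encodes the lamin B receptor of the nuclear envelope. Capitals mark CG, and all are written 5′ to 3′ on the strand of the gene, from mm9.
Olfr222, chr11:59385316-59385515, minus strand: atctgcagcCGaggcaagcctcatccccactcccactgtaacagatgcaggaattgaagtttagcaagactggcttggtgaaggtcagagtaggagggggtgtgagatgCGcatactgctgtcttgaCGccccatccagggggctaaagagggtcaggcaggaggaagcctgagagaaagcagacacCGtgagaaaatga
Olfr658, chr7:111795820-111796019, minus strand: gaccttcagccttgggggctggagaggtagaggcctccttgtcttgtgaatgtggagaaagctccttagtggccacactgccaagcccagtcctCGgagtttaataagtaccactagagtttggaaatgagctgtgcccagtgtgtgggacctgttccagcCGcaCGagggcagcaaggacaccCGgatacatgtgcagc
Vmn1r171, chr7:24416807-24417006, plus strand: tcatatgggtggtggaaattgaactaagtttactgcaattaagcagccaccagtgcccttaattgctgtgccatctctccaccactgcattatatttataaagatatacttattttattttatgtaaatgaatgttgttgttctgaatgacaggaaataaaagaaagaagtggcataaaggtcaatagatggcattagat
Lbr, chr1:183772533-183772732, minus strand: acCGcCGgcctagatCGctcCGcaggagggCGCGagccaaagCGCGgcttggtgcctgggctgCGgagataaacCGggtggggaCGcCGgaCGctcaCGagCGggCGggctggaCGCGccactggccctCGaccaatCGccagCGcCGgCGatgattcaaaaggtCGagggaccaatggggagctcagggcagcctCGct
The stretch before Lbr held 25 CG dinucleotides, those before Olfr222 and Olfr658 held 4 each, and that before Vmn1r171 held 0. Olfr222 and Olfr658 thus exceed the 95th percentile of receptor genes, 3 in 250 bases. They are not typical of their group. Lbr exceeds the median of other genes, 10 in 250 bases, whose 95th percentile is 32.

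Short motifs were searched on both strands of the same 250 bases. The letters TATAAA were found at 37.3% of receptor genes and 12.4% of all protein-coding genes, and the palindrome TAATTA, the core that many homeodomain proteins such as Lhx2 bind, at 16.7% and 4.6%. TAATTA was present at 18.3% of Olfr, 8.87% of Vmn1r and 16.1% of Vmn2r genes. The letters CCGGAAG, the core of many ETS factor sites, were found at 0.0698% of receptor genes (1 gene) and 8.36% of all genes. Among the 562 receptor genes with an annotated leader, TATAAA was found at 35.8%, TAATTA at 16.4% and CCGGAAG at 0%. These shares describe letters only, and the part of base composition in them was not tested.

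Annotated receptor TSSs carried few reads in both libraries. For 60.8% of them the TSS is the first coding base. Their windows are centred on the coding start and not on a known promoter. The median receptor gene had 5 Msl1 and 8 Nsl1 reads within 500 bases, and 22 and 32 reads within 2 kb, whereas the median of other protein-coding genes was 21 and 22 reads within 500 bases. Because receptor copies resemble each other, reads were related to the number of start positions whose sequence occurs once in the genome, and divided by the same density over all autosomes (relative density, with the autosomal density as 1). On this scale the 1433 receptor TSSs had a relative Msl1 density of 0.743 (95% Poisson interval 0.727 to 0.760) and a relative Nsl1 density of 0.898 (0.882 to 0.914) within 500 bases, against 2.76 and 2.75 at other genes. Within 2 kb the values were 0.730 (0.722 to 0.738) for Msl1 and 0.813 (0.806 to 0.821) for Nsl1, against 2.14 and 1.70. Both libraries were thus below the autosomal density at receptor TSSs, while other TSSs lay above it.

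The families differed slightly. Within 500 bases the relative Msl1 density was 0.752 (0.734 to 0.770) at Olfr, 0.727 (0.679 to 0.777) at Vmn1r and 0.669 (0.611 to 0.731) at Vmn2r genes. The upper bound of Vmn2r lay just below the lower bound of Olfr. The relative Nsl1 density was 0.924 (0.906 to 0.942) at Olfr, 0.797 (0.751 to 0.845) at Vmn1r and 0.733 (0.678 to 0.792) at Vmn2r genes. Here the interval of Olfr lay above both others, which overlapped each other. As everywhere below, these intervals leave out the variation between genes, which exceeded counting error, so a lack of overlap is not a test.

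**Figure D1:**
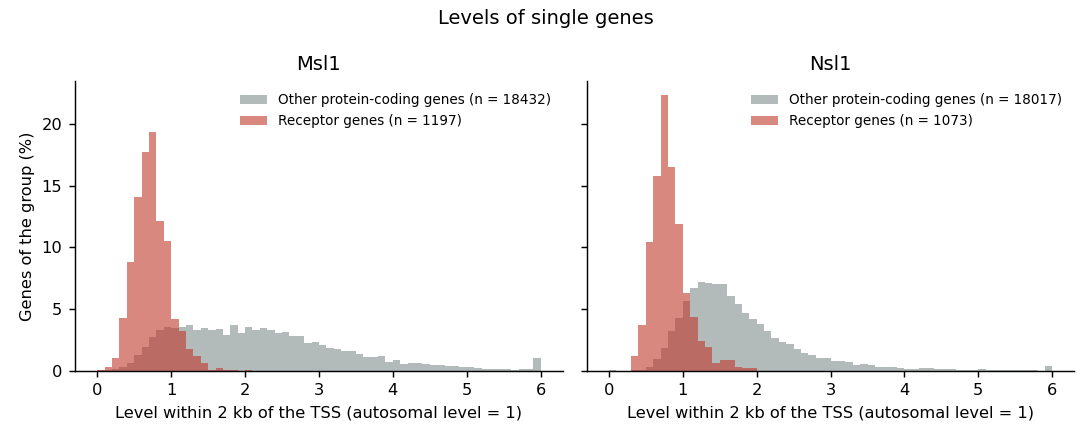
Distribution of the relative density within 2 kb of single TSSs (x axis, autosomal density = 1, values of 6 and above in the last bar) as the percentage of genes of each group (y axis), for genes with at least 80% unique start positions. Receptor genes (red) formed 1 narrow peak below 1 in both libraries, with medians of 0.716 for Msl1 and 0.783 for Nsl1, and other genes (grey) spread to higher values.

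Single receptor genes varied less than other genes, though by more than counting error. Among those with at least 80% unique start positions within 2 kb, 1197 in the Msl1 and 1073 in the Nsl1 library, the central 90% ran from 0.394 up to 1.16 in the Msl1 library, and from 0.504 up to 1.30 in the Nsl1 library. Other genes spread from 0.721 to 4.43 and from 0.857 to 3.31. A relative density above 2 was reached by 1 receptor gene in the Msl1 library, Olfr222, and by 0 in the Nsl1 library, whereas 52.2% and 28.1% of other genes exceeded it. Olfr222 on chromosome 11 had 74 Msl1 and 93 Nsl1 reads within 2 kb (2.09 and 1.99). Among genes with at least 80% unique positions in both libraries, the lowest sum of both densities was that of Olfr250 on chromosome 9. It had 6 Msl1 and 22 Nsl1 reads (0.169 and 0.470). The lowest densities of either library alone were 0.0662 among the 1197 genes for Msl1 and 0.302 among the 1073 for Nsl1. For the 261 receptor genes whose windows of 500 bases were fully unique in both libraries, the Msl1 counts ran from 0 to 32 with a median of 7, and the Nsl1 counts from 2 to 29 with a median of 11. Their variance was 1.94 times the mean for Msl1 and 1.70 times for Nsl1, where 1 is the value for counting error alone. Between the libraries these 261 counts had a Pearson correlation of 0.299 and a Spearman correlation of 0.178, and their correlation with GC content was 0.326 for Msl1 and 0.551 for Nsl1. These are descriptions across genes, which share base composition and chromosome.

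**Figure D2:**
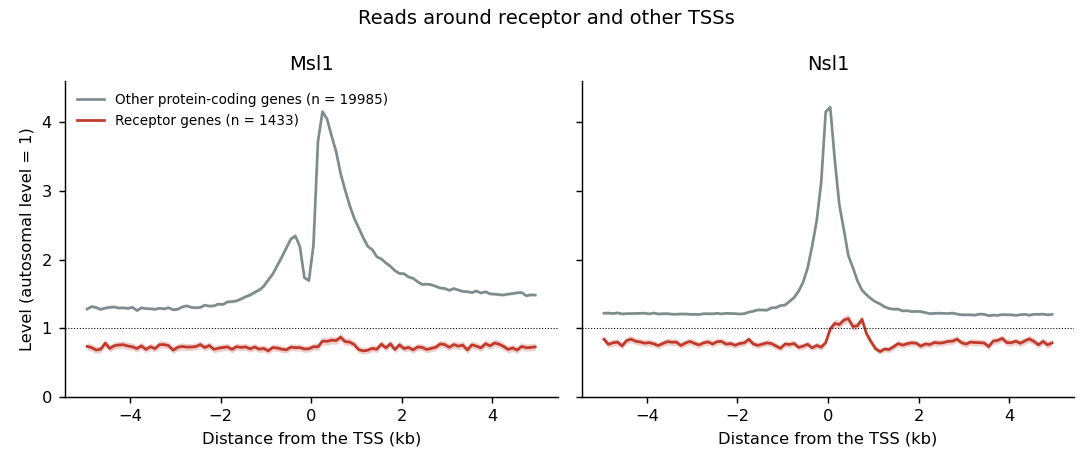
Relative density (y axis, autosomal density = 1) in bins of 100 bases by distance from the TSS (x axis, kb, oriented by strand) for 1433 receptor and 19985 other protein-coding genes, with shaded 95% Poisson intervals. Other genes rose to 4.15 for Msl1 and 4.22 for Nsl1, whereas receptor genes reached 0.868 and 1.14.

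The profiles at receptor TSSs stayed near the level of their surroundings, with a step in the Nsl1 library. Over all receptor genes, the highest bin within 2 kb of the TSS was 0.868 (0.812 to 0.927) for Msl1, from 600 to 700 bases downstream, and 1.14 (1.08 to 1.20) for Nsl1, from 400 to 500 bases downstream. Upstream, from 5 kb to 2.5 kb, the densities were 0.727 and 0.787, so that the highest bins were 1.19 and 1.45 times the upstream density. Where the TSS lies upstream of the coding start, in some genes by few bases, these factors were 1.22 and 1.46. Where it is the first coding base, they were 1.17 and 1.53. At other genes the highest Msl1 bin, from 200 to 300 bases downstream, was 4.15 and 3.22 times the upstream density, and the highest Nsl1 bin, in the first 100 bases, was 4.22 and 3.49 times. Relative to their local density, from 5 kb to 50 kb on both sides, receptor TSSs had 1.02 times the reads in the Msl1 library (1.00 to 1.05) and 1.12 times in the Nsl1 library (1.10 to 1.14), against 2.10 and 2.40 times at other TSSs. The Nsl1 excess lay at Olfr genes, at 1.14 (1.12 to 1.17). At Vmn1r and Vmn2r genes the Nsl1 ratios were 1.01 (0.95 to 1.07) and 1.00 (0.926 to 1.08), and the intervals did not reach that of Olfr.

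The Nsl1 reads at Olfr genes were highest over the coding exon. Odorant receptors are encoded on a single coding exon, and 1035 Olfr genes with a median coding length of 939 bases are annotated so. In the 500 bases before the first coding base the relative Nsl1 density was 0.734 (0.712 to 0.757), in the first 500 coding bases 1.18 (1.15 to 1.21), in the next 500 bases 1.03 (1.00 to 1.06), and from 1000 to 1500 bases, mostly beyond the exon, 0.681 (0.660 to 0.703). The Msl1 density varied less, and was highest in the second stretch of the exon rather than the first, with 0.706 (0.682 to 0.732), 0.815 (0.787 to 0.844), 0.841 (0.812 to 0.870) and 0.703 (0.678 to 0.728). The GC content of the same stretches was 34.5%, 45.6%, 42.4% and 33.8%. Over the 100 bins of 100 bases around the coding start, which share libraries and neighbouring reads, the correlation of density with GC content was 0.916 for Nsl1 and 0.675 for Msl1 at Olfr genes, and 0.459 and 0.217 at Vmn1r genes. Vmn1r genes, of which 195 have 1 coding exon, had a smaller step in GC content between the 500 bases before and the 500 bases after the coding start, from 34.2% to 40.7%, and a smaller Nsl1 step from 0.738 (0.677 to 0.803) to 0.864 (0.791 to 0.940). The Msl1 density did not rise there, with 0.758 (0.689 to 0.832) before and 0.683 (0.614 to 0.758) after the start.

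**Figure D3:**
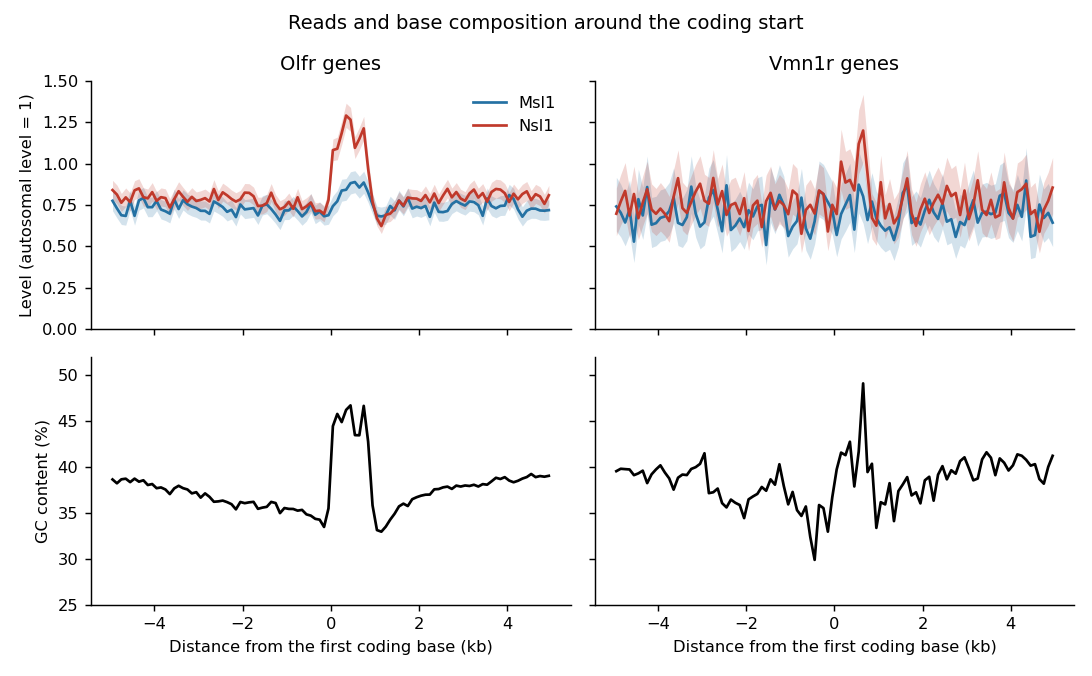
Relative density (upper panels, autosomal density = 1) and GC content (lower panels, %) in bins of 100 bases by distance from the first coding base (x axis, kb) at Olfr genes (left) and Vmn1r genes (right), with shaded 95% Poisson intervals. Over the Olfr coding exon the Nsl1 density (red) rose from 0.734 to 1.18 and the Msl1 density (blue) from 0.706 to 0.815, in the same bins in which GC content rose from 34.5% to 45.6%.

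Receptor TSSs were then set against intergenic DNA of the same base composition, in 10 GC classes. For Msl1 the interval of receptor TSSs held the value of intergenic DNA in 7 classes, lay above it in 2 and below it in 1. For Nsl1 receptor TSSs were above intergenic DNA in all 10 classes, and in 9 of them the interval excluded its value. These classes were not matched for chromosome. On GC class alone, receptor TSSs together had 1.01 times the Msl1 and 1.08 times the Nsl1 reads of intergenic DNA. The reference was 891333 tiles of 1 kb that lie more than 20 kb from any annotated gene, with relative densities of 0.757 for Msl1 and 0.864 for Nsl1. In the class of 38 to 40% GC, receptor TSSs had 0.715 and tiles 0.724 for Msl1, and 0.886 and 0.834 for Nsl1. At 44 to 46% GC the Msl1 values were 0.876 and 0.864, and the Nsl1 values 1.20 and 1.03. At 48 to 52% GC the 53 receptor TSSs had 0.894 (0.804 to 0.992) for Msl1, below the tiles at 1.02, and 1.37 (1.27 to 1.48) for Nsl1, above the tiles at 1.21. The 17 receptor TSSs of over 52% GC had 1.48 (1.28 to 1.70) and 1.6 (1.42 to 1.81), and tiles 1.20 and 1.35. Against tiles of the same GC class and chromosome, a reference added after the relation to GC content was seen, the receptor TSSs together had 0.982 times the reads for Msl1 (0.961 to 1.00) and 1.05 times for Nsl1 (1.03 to 1.06). For other TSSs these ratios were 2.49 and 2.22. By family the Nsl1 ratio was 1.05 (1.03 to 1.07) at Olfr, 1.03 (0.966 to 1.09) at Vmn1r and 1.02 (0.944 to 1.10) at Vmn2r genes, so the 3 intervals overlapped. The Msl1 ratio was 0.973 (0.949 to 0.996) at Olfr, 1.05 (0.977 to 1.12) at Vmn1r and 1.02 (0.928 to 1.11) at Vmn2r genes, so that Vmn2r genes no longer lay below Olfr genes. Over the coding exon of Olfr genes alone, the Nsl1 reads were 1.11 times those of tiles of the same GC class (1.09 to 1.13) and the Msl1 reads 0.967 times (0.943 to 0.992). On this reference of GC class alone, the Olfr TSSs had 1.09 times the Nsl1 and 1.01 times the Msl1 reads of tiles. The Olfr exons of over 52% GC, 70 in number, had relative densities of 1.22 for Msl1 and 1.70 for Nsl1, and tiles of that class 1.20 and 1.35. Other protein-coding TSSs of 38 to 40% GC had relative densities of 0.869 for Msl1 and 0.905 for Nsl1, also below the autosomal density. Those of 34 to 36% GC had 1.48 and 1.57, above it. Whether base composition sets these densities was not tested.

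**Figure D4:**
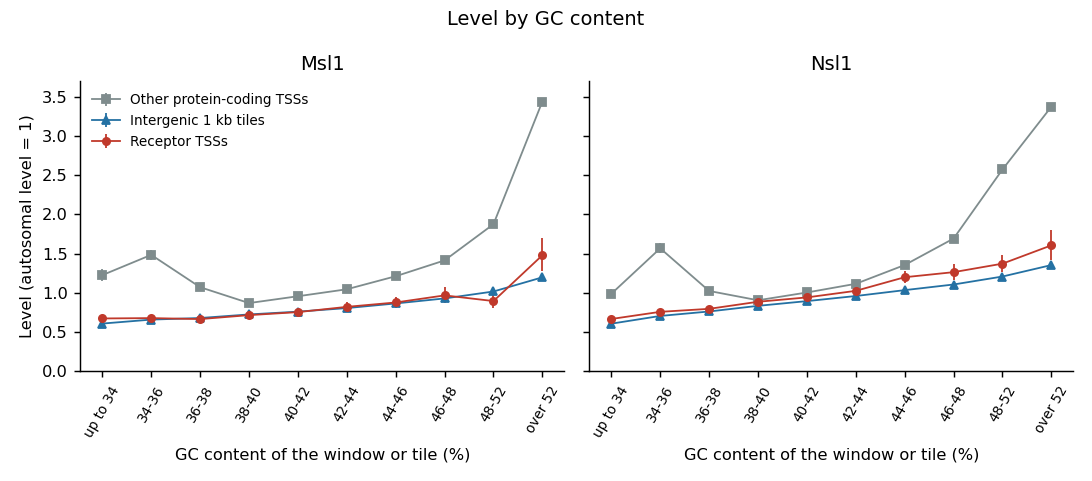
Relative density (y axis, autosomal density = 1) by GC class (x axis, %) of windows of 500 bases on each side of receptor TSSs (red), of other protein-coding TSSs (grey) and of intergenic tiles of 1 kb (blue), with 95% Poisson intervals. In most classes receptor TSSs lay close to the tiles in the Msl1 library, as at 38 to 40% GC with 0.715 and 0.724, and in the Nsl1 library slightly above them, with 0.886 and 0.834. Other TSSs rose far above both in the GC-rich classes. The classes were not matched for chromosome.

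Other families of receptors and secreted or structural proteins with narrow expression served as further low-signal classes. The 15 trace amine-associated receptor genes (Taar), which olfactory neurons also use, had relative densities within 500 bases of 0.879 (0.713 to 1.07) for Msl1 and 1.03 (0.869 to 1.21) for Nsl1. The 35 bitter taste receptor genes (Tas2r) had 0.785 (0.690 to 0.890) and 0.798 (0.714 to 0.890). The 20 Mas-related receptor genes (Mrgpr), many of which serve itch-sensing neurons, had 0.778 (0.649 to 0.925) for Msl1 and 1.09 (0.952 to 1.24) for Nsl1. Their Nsl1 reads were 1.46 times the local density (1.28 to 1.67), and 1.05 times those of tiles of the same GC class and chromosome (0.920 to 1.20). The 7 formyl peptide receptor genes (Fpr) had 0.913 (0.669 to 1.22) and 0.858 (0.646 to 1.12). The 41 beta-defensin genes (Defb) and the 46 hair keratin-associated protein genes (Krtap) lay higher, with 0.976 and 1.07 for Msl1 and 1.27 and 1.19 for Nsl1. Against tiles of the same GC class and chromosome, Defb genes had 1.09 (0.975 to 1.21) and 1.18 (1.09 to 1.29), whereas Krtap genes had 0.945 (0.852 to 1.05) and 0.891 (0.816 to 0.971). The 12 alpha-defensin genes (Defa), of which 2 for Msl1 and 1 for Nsl1 had at least 50% unique positions, gave 0.439 and 0.380. Genes of 1 exon outside the receptor and histone families, 1567 in number, had 1.87 and 1.68. The 64 histone genes of Hist1 and Hist2 had 2.51 and 2.16.

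Single receptor TSSs were called where at least 50% of start positions were unique, reads within 500 bases were at least 2 times the local density, and the lower bound of the exact 95% Poisson interval exceeded 1. In the Msl1 library 53 of 1306 receptor TSSs (4.06%) were called, against 43.1% of all autosomal protein-coding TSSs tested and 45.8% of the other genes. In the Nsl1 library the shares of receptor and all TSSs were 42 of 1271 (3.30%) and 37.7%. The opposite rule, reads at most 0.5 times the local density with the upper bound below 1, held at 33 receptor TSSs for Msl1 (2.53%, all genes 1.79%) and at 18 for Nsl1 (1.42%, all genes 0.947%). Where very few reads are expected, even a count of 0 cannot meet this rule. Its shares are therefore not like those of the calls, nor alike between receptor TSSs and genes with more reads. By family the Msl1 calls fell on 42 Olfr, 7 Vmn1r and 4 Vmn2r genes, and the Nsl1 calls on 41 Olfr, 0 Vmn1r and 1 Vmn2r gene. The annotated TSS was the first coding base at 30 of 53 Msl1 and 28 of 42 Nsl1 calls, against 60.8% of receptor genes. The called receptor TSSs rested on few reads, with 7 to 32 for Msl1 (median 12) and 11 to 29 for Nsl1 (median 17), whereas called TSSs of other genes had medians of 34 and 46 reads. With reads counted within 1000 bases the calls fell to 20 (1.51%) for Msl1 and 11 (0.848%) for Nsl1. A ratio of at least 3 left 4 (0.306%) and 1 (0.0787%). With neither the correction for unique positions nor the requirement of 50% unique positions, the calls rose to 115 (8.19%) and 153 (10.9%). At other genes the window of 1000 bases still gave 43.4% and 29.4%, and a ratio of at least 3 gave 21.6% and 23.2%.

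Both libraries called 3 receptor TSSs, Olfr898, Olfr52 and Vmn2r15, or 0.236% of the 1271 tested in both, against 27.2% of all genes and 29.1% of the others. Olfr898 on chromosome 9 had 7 Msl1 reads within 500 bases, 2.51 times its local density (1.01 to 5.18), and 18 Nsl1 reads, 2.87 times (1.70 to 4.54). Olfr52 on chromosome 2 had 12 Msl1 reads, 2.33 times (1.20 to 4.07), and 15 Nsl1 reads, 2.06 times (1.16 to 3.41). Vmn2r15 on chromosome 5 had 9 Msl1 reads, 2.65 times (1.21 to 5.03), and 11 Nsl1 reads, 2.10 times (1.05 to 3.76). All 3 have local densities below the autosomal density, from 0.331 to 0.673 for Msl1 and from 0.495 to 0.759 for Nsl1. Their annotated TSS is in each case the first coding base, and no leader exon or promoter upstream of it is annotated in this release. To show what the called windows are centred on, the 60 bases before and the 60 bases from the annotated TSS are given, with the first codon in capitals.
Olfr898, chr9:38156610-38156729, plus strand: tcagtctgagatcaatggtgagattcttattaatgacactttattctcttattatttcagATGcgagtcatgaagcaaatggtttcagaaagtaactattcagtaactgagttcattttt
Olfr52, chr2:86022207-86022326, minus strand: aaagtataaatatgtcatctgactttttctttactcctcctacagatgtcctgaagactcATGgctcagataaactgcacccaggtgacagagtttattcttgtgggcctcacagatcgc
Vmn2r15, chr5:109726516-109726635, minus strand: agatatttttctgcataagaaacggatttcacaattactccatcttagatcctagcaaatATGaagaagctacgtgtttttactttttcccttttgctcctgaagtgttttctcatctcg

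The highest Msl1 ratios among called receptor TSSs were those of Vmn1r171, Vmn1r15, Vmn1r172, Olfr220 and Vmn1r225. Vmn1r171 had 10 Msl1 reads, 4.18 times its local density (2.0 to 7.68), on a local density of 0.283, and 8 Nsl1 reads, 1.51 times (0.652 to 2.98). Vmn1r15 had 14 Msl1 reads, 3.28 times (1.8 to 5.51), and 9 Nsl1 reads, 1.13 times (0.516 to 2.14). Vmn1r172, a neighbour of Vmn1r171 on chromosome 7, had 8 Msl1 reads, 3.27 times (1.41 to 6.44), and 6 Nsl1 reads, 1.34 times (0.493 to 2.92). All 5 had a local Msl1 density between 0.283 and 0.624, and in none was the TSS also called for Nsl1. Olfr220 had 13 Msl1 and 15 Nsl1 reads, 3.22 and 1.79 times its local density. Vmn1r225 had 16 Msl1 and 11 Nsl1 reads, 2.89 and 1.62 times.

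The highest Nsl1 ratios were those of Olfr658, Olfr898, Olfr1019, Olfr1163 and Olfr1458. Olfr658, in the chromosome 7 cluster around the beta-globin genes, had 23 Nsl1 reads, 3.22 times its local density (2.04 to 4.84), and 4 Msl1 reads, 0.715 times (0.195 to 1.83). It is the only called receptor TSS with an Nsl1 ratio of at least 3, a value for which it was chosen. Its window has a GC content of 52.4%. Olfr1019 on chromosome 2 had 21 Nsl1 reads, 2.81 times (1.74 to 4.29), and 5 Msl1 reads, 0.867 times (0.282 to 2.02). Olfr1163 had 19 Nsl1 reads, 2.63 times, and 8 Msl1 reads, 1.58 times, and Olfr1458 had 11 and 8 reads, 2.52 and 2.12 times. Apart from Olfr898 none of these was called for Msl1.

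The receptor TSSs with the largest read counts all had windows of higher GC content than the median receptor TSS. Olfr222 had 32 Msl1 reads within 500 bases, 2.36 times its local density (1.61 to 3.33), and 29 Nsl1 reads, 1.49 times (0.997 to 2.14), in a window of 53.7% GC whose local densities were 1.53 and 1.65. Olfr95 on chromosome 17 had 23 Msl1 and 22 Nsl1 reads, 2.74 times (1.74 to 4.12) and 1.96 times (1.23 to 2.97), at 53.1% GC. Olfr1349 on chromosome 7 had 22 and 19 reads, 2.62 times (1.64 to 3.97) and 1.74 times (1.05 to 2.72), at 55.6% GC. These 3 were called for Msl1 and not for Nsl1. In the Nsl1 library Olfr139 and Olfr412, both on chromosome 11, followed with 29 and 28 reads, of which Olfr139 was called at 2.32 times (1.56 to 3.34). Olfr139 had 7 Msl1 reads, 0.852 times, and Olfr412 had 16, 1.07 times.

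Receptor genes known by their ligands or by gene targeting were looked at for reference, and 11 of the 12 chosen were found under these symbols. Olfr16, the lyral receptor, was called for Nsl1 with 18 reads, 2.02 times its local density (1.20 to 3.19), and had 4 Msl1 reads, 0.722 times (0.197 to 1.85). The other 10 were called in neither library. Olfr73, the eugenol receptor, had 10 Msl1 and 13 Nsl1 reads, 1.69 and 1.6 times. Olfr2, the octanal receptor, had 6 and 11 reads, 0.953 and 1.14 times. Olfr151, the acetophenone receptor often used in studies of receptor choice, had 5 and 7 reads, 0.857 and 0.840 times. Olfr1507, whose cluster is governed by the H element, had 5 and 5 reads, 0.817 and 0.557 times. Olfr78, which is also expressed in the carotid body, had 7 and 8 reads, 1.14 and 0.832 times. Olfr17 had 4 and 13 reads, 0.898 and 1.85 times, and Olfr544 had 7 and 17 reads, 0.875 and 1.55 times. Among vomeronasal receptors, Vmn2r1, which is coexpressed with other Vmn2r genes, had 7 and 7 reads, 0.956 and 0.729 times, and Vmn2r26 had 5 and 10 reads, 1.17 and 1.86 times. Vmn2r116, the receptor of a male tear peptide, had 5 and 7 reads, 1.48 and 1.5 times.

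Genes that act with the receptors were examined in the same way. Of 26 genes of olfactory and vomeronasal signalling, receptor trafficking and receptor choice, 12 were called for Msl1, 6 for Nsl1 and 4 for both, where all genes gave 43.1%, 37.7% and 27.2%, and Cngb1 could not be assessed because its TSS has no unique start position. The Msl1 count was near the share over all genes, and the counts for Nsl1 and for both were below it. Among signalling genes, Gnal, which encodes Golf, was called for Msl1 (29 reads, 3.21 times, 2.15 to 4.61), and Trpc2, the vomeronasal channel, for Nsl1 (50 reads, 3.28 times, 2.43 to 4.32). Ric8b, a chaperone of Golf, was called for both, with 31 Msl1 and 37 Nsl1 reads, 2.45 and 2.52 times. Omp, the olfactory marker protein, had 20 and 22 reads, 1.63 and 1.39 times, and was not called. The trafficking genes Rtp1, Rtp2 and Reep1 were not called, with ratios from 0.831 to 1.40 for Msl1 and from 1.12 to 1.57 for Nsl1. Among genes of choice and nuclear architecture 7 of 11 were called for Msl1 and 2 for Nsl1, against the shares of 43.1% and 37.7% over all genes. Lbr, whose promoter is printed above, had 49 Msl1 reads, 3.84 times (2.84 to 5.07), and 23 Nsl1 reads, 1.53 times (0.968 to 2.29). Kdm1a, a histone demethylase needed for receptor choice, and Lmnb1, lamin B1, were called for both. Lhx2, the homeodomain factor of receptor enhancers, had 16 Msl1 reads, 1.33 times (0.760 to 2.16), and 3 Nsl1 reads, 0.219 times (0.0452 to 0.641).

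Within 2 kb the ratio of the libraries at receptor genes lay nearer to that of all intergenic tiles than to that of other genes. Within 2 kb the relative Msl1 density was 0.897 times the relative Nsl1 density (0.884 to 0.910), against 1.26 at other genes and 0.876 over intergenic tiles. It was 0.895 (0.881 to 0.909) at Olfr, 0.928 (0.887 to 0.970) at Vmn1r and 0.884 (0.834 to 0.938) at Vmn2r genes, with overlapping intervals. The tiles of this comparison were not matched for GC content. Within 500 bases, against tiles of the same GC class and chromosome, receptor TSSs had 0.982 times the Msl1 and 1.05 times the Nsl1 reads. On that reference the ratio of Msl1 to Nsl1 at receptor TSSs lay below that of the tiles. Of 1073 receptor genes with at least 80% unique positions in both libraries, 409 (38.1%) had a ratio over 1, against 67.8% of other genes. The ends of this range were Olfr630, with 5 Msl1 and 36 Nsl1 reads within 2 kb (ratio 0.181), and Olfr986, with 48 and 26 reads (ratio 2.29). Repeated reads made up 17.9% of Msl1 and 2.83% of Nsl1 reads at receptor TSSs, against 28.0% and 20.9% at other TSSs.

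Most receptor genes lie in clusters. Over whole clusters the Msl1 density was close to that at the TSSs, and the Nsl1 density was lower than at the TSSs. With neighbours at most 500 kb apart and at least 5 members, 45 clusters held 1380 of the 1433 genes. Over all clusters the relative densities were 0.733 (0.731 to 0.736) for Msl1 and 0.801 (0.798 to 0.804) for Nsl1, and 41 clusters for Msl1 and 36 for Nsl1 lay below the autosomal density. The largest, with 221 Olfr genes from Olfr987 to Olfr1272 on chromosome 2 (chr2:85171054-90122730), had 0.669 and 0.712, and 20.9% and 12.6% of autosomal bins of 100 kb lay below it. The cluster of 129 Olfr genes from Olfr543 to Olfr692 on chromosome 7 (chr7:109625287-112517869), which surrounds the beta-globin genes and holds the class I receptors, had 0.647 and 0.765. At the TSSs of these 129 genes the relative Msl1 density was 0.665 (0.616 to 0.716), below that of the other 977 Olfr genes at 0.763 (0.744 to 0.783), and the Nsl1 densities were 0.945 (0.893 to 0.998) and 0.921 (0.902 to 0.940). Relative to the local density, the Msl1 values were 0.993 (0.921 to 1.07) and 1.02 (0.996 to 1.05), with overlapping intervals. Against tiles of the same GC class and chromosome they were 0.878 (0.814 to 0.946) and 0.985 (0.960 to 1.01). A cluster of 14 Olfr genes from Olfr433 to Olfr220 on chromosome 1 had 0.447 for Msl1, below all but 1.79% of the bins, and 0.702 for Nsl1. Above the autosomal density in both libraries and off chromosome 11 lay 2 small clusters, 6 genes from Olfr70 to Olfr155 on chromosome 4 (1.20 and 1.10) and 8 genes from Olfr221 to Olfr1507 on chromosome 14 (1.18 and 1.03).

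Of the 4 clusters on chromosome 11, 3 had the highest Nsl1 densities of all clusters. The 19 genes from Olfr56 to Olfr1380 had relative densities of 1.24 for Msl1 and 1.35 for Nsl1, and the 5 genes from Olfr1378 to Olfr1375-ps1 had 1.27 and 1.41. The 20 genes from Olfr30 to Olfr311 had 0.879 and 1.25, and the 29 genes from Olfr20 to Olfr412 had 0.951 and 1.08. Intergenic tiles of chromosome 11 were also above those of other chromosomes, at 1.05 for Msl1 and 1.22 for Nsl1, whereas no other autosome exceeded 0.817 and 0.921. The 81 receptor TSSs of chromosome 11 had 1.07 (0.995 to 1.16) and 1.44 (1.36 to 1.53) within 500 bases, against 0.723 (0.706 to 0.739) and 0.864 (0.848 to 0.881) on the other autosomes. Set against tiles of their own chromosome and GC class, they had 0.929 (0.860 to 1.00) and 1.03 (0.972 to 1.09), and relative to their local density 0.987 (0.914 to 1.06) and 1.13 (1.07 to 1.20), so their excess was shared by the surrounding DNA. Whether the cells carried more copies of chromosome 11 was not tested.

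**Figure D5:**
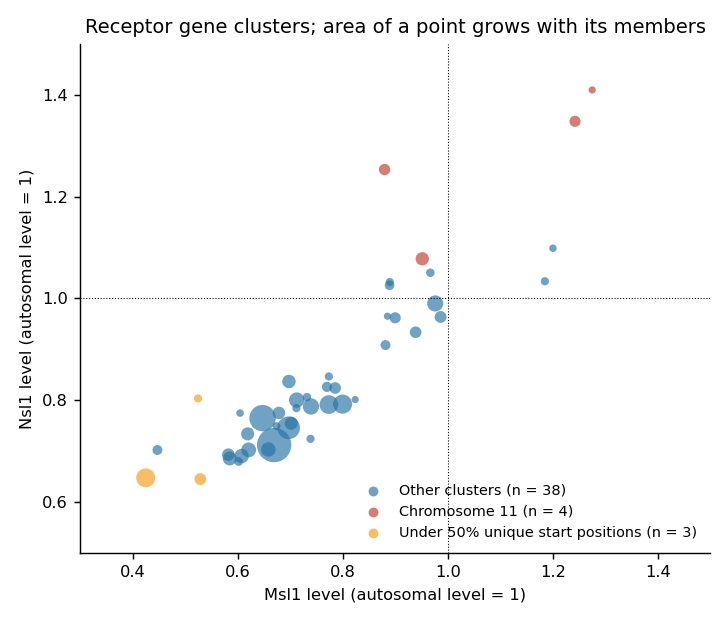
Relative density over each of 45 receptor clusters in the Msl1 (x axis) and Nsl1 library (y axis), both with the autosomal density as 1, where the area of a point grows with the number of members. Clusters of chromosome 11 (red) had Nsl1 densities from 1.08 to 1.41, the 2 largest Olfr clusters had 0.669 and 0.647 for Msl1 and 0.712 and 0.765 for Nsl1, and 3 clusters with under 50% unique start positions (orange) had Msl1 densities from 0.425 to 0.529.

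Counts of 0 in both libraries were found only where few start positions are unique. Of the 1433 receptor genes, 54 had 0 reads within 2 kb in both libraries, 38 of them Vmn1r, 14 Vmn2r and 2 Olfr genes, and none of the 54 had more than 22.4% unique start positions for the Msl1 or 14.6% for the Nsl1 reads. A count of 0 there does not show that a site is unbound. No receptor gene with at least 80% unique positions was without reads. In the cluster of 64 Vmn1r genes from Vmn1r91 to Vmn1r183 on chromosome 7 (chr7:20686507-24840710), 16.3% of positions were unique for Msl1 and 13.1% for Nsl1 reads, and the relative densities were 0.425 and 0.647. As an example of copies that no read can tell apart, the windows of 500 bases on each side of the TSSs of Vmn1r107, Vmn1r110 and Vmn1r155 are identical. In all, 20 receptor genes share such a window with another. The 60 bases before and the 60 from this shared annotated TSS are printed as read at Vmn1r107, with the first codon in capitals.
Vmn1r107, chr7:21254207-21254326, plus strand: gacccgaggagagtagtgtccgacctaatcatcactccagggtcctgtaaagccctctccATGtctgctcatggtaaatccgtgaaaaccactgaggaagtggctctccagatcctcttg

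At the 42 of its genes with at most 25% unique positions, 3 Msl1 and 5 Nsl1 reads lay at unique positions within 2 kb, where the autosomal density would give 81.0 and 69.7. Of the unique start positions there, 91.9% for the 50-base and 93.8% for the 36-base reads had another copy in the cluster with at most 2 mismatches. At the 7 genes of the cluster with at least 80% unique positions these shares were 18.7% and 30.6%, and the relative densities within 2 kb were 0.664 and 0.785, close to those of all receptor genes. The mismatch settings of the aligner are not given in the sources used here, and the cells are of another strain than the reference genome. The part of either in the low counts was not tested. Over all receptor genes the relative density within 2 kb was lowest in the classes with at most 25% unique positions. For Msl1 it was 0.278 (0.152 to 0.466) at up to 10% unique positions, 0.178 (0.114 to 0.265) from 10 to 25%, 0.406 (0.332 to 0.492) from 25 to 50%, 0.703 from 50 to 75%, 0.696 from 75 to 90%, 0.737 from 90 to 99% and 0.763 (0.746 to 0.780) above 99%. For Nsl1 it was 0.189 (0.103 to 0.317), 0.373 (0.284 to 0.481), 0.711 (0.649 to 0.778), 0.744, 0.809, 0.822 and 0.869 (0.847 to 0.892) in the same classes.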

How the data were processed

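Per the labels and the methods of the study, base calling was done with the Illumina pipeline (CASAVA 1.8.2), single reads were placed on mm9 by Bowtie 0.12.7, and the authors used unique reads. The deposited files list the position and strand of each read with a constant score, which was not used. Here 1 read was kept per position and strand (81.7% of nuclear Msl1 and 95.4% of Nsl1 reads) and moved to the fragment middle by 102 bases for Msl1 and 67 for Nsl1, from the strand cross-correlation. A start position was unique where its 50 or 36 bases occur once in the genome, on either strand. Genes came from the GENCODE vM1 annotation. Levels are reads per unique start position divided by that of the autosomes, with exact 95% Poisson intervals, and the interval of the ratio of the libraries came from the Poisson variance on the log scale. Python 3.11.15, numpy 2.4.6 and scipy 1.17.1 were used, and the calls and the search for unique positions were tested on simulated data. Because each antibody has 1 library, values carry counting intervals and no p-value.

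The receptor genes, gene lists and rules were chosen with earlier results of these data known. Named receptor genes are those called in both libraries, the 5 with the highest ratio and the 3 with the most reads in each library, and a list of 12 known receptors, of which Olfr160 was not found under this symbol. The ends of the distribution over 2 kb (Olfr222, Olfr250, Olfr630 and Olfr986), Vmn1r170 and the clusters were named after their values were seen. Genes off the autosomes and the 239 receptor-named genes annotated as pseudogenes were not members, whereas 33 members annotated as protein-coding have symbols with -ps. The alternatives were all reads, a shift of 100 bases, no correction for unique positions and the most downstream TSS. Others were members with at least 90% unique positions, or with no TSS of a gene outside the receptor families within 10 kb. A local density from 10 kb to 100 kb, a ratio of 3, windows of 1000 bases and clusters with gaps of 200 kb were also used. Members without chromosome 11 or without the Vmn1r cluster of chromosome 7 were added after seeing the data.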

Additional observations from a re-analysis of the deposited data

How the results depend on the processing

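Of 88 values under the alternatives, 56 stayed within the counting interval of the reported value or, for numbers of calls, within 1.5 times, and none changed direction. Without the correction for unique positions the relative density within 500 bases was 0.702 for Msl1 and 0.834 for Nsl1, within 2 kb 0.708 and 0.781, over clusters 0.596 and 0.616, the ratio to the local density 1.11 and 1.25, and the calls, for which the requirement of 50% unique positions was dropped as well, 115 and 153. Members with at least 90% unique positions gave 0.768 and 0.929 within 500 bases, 0.747 and 0.831 within 2 kb, local ratios of 1.06 and 1.17, and 35 Msl1 calls among fewer members. Without chromosome 11 the densities were 0.723 and 0.864 within 500 bases and 0.711 and 0.782 within 2 kb. With all reads kept the Nsl1 density was 0.882 within 500 bases, 0.799 within 2 kb and 0.788 over clusters, and the Msl1 density over clusters 0.728. Members with no TSS of a gene outside the receptor families within 10 kb gave an Nsl1 density of 0.804 within 2 kb. Clusters with gaps of up to 200 kb had 0.698 for Msl1 and 0.776 for Nsl1. A ratio of at least 3 left 4 Msl1 calls (0.306%, other genes 21.6%) and 1 Nsl1 call (0.0787%, other genes 23.2%). Windows of 1000 bases left 20 (1.51%, other genes 43.4%) and 11 (0.848%, other genes 29.4%). Where not stated, the cause was not tested. The ratio of Msl1 to Nsl1 moved by less than its interval under each alternative. No paired analysis was possible because there is 1 library per antibody and the labels give no replicate numbers, and for the same reason no library could be left out. Depth limits single TSSs, since called receptor TSSs rest on as few as 7 Msl1 and 11 Nsl1 reads.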
